A study of Homo sapiens with 16 samples.

Results

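HOX gene signals were described in HCC70 and MDA-MB-468, human breast cancer lines. Of the 38 HOX genes sought, 27 had a transcript cluster (the array's unit of measurement for a gene) that the platform annotation gives exactly 1 symbol, out of 19460 such clusters and 33297 in all. They were 1 gene of the HOXA cluster (HOXA2), 10 of HOXB, 7 of HOXC and 9 of HOXD. HOXC4 and HOXC6 lay on a cluster with several symbols, so signal could not be assigned to either, and 9 HOXA genes, from HOXA3 to HOXA13, were not analysed here. No level was required for a gene to enter, and no HOX gene had more than 1 such cluster to choose from.

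RNA was measured on 16 Affymetrix Human Gene 1.0 ST arrays in 8 groups of 2, with values as RMA log2 signals. The study lowered or raised subunits of Polycomb repressive complex 2 (PRC2) in cells stably infected with a viral vector and kept under puromycin, which all groups and their controls share. HCC70 cells carried shRNA against EZH2 (shEZH2), set against scrambled shRNA set a; shRNA against EED (shEED), set against scrambled shRNA set b; or an EZH2 cDNA (labelled fip EZH2), set against an empty vector (labelled plKO Puro). MDA-MB-468 cells carried shEZH2, set against scrambled shRNA. Which of sets a and b served which knockdown is not stated outright; sample codes run in blocks of 1 control pair and 1 treated pair, and were followed. Nothing says that duplicates were separate cultures, so p-values measure the spread between duplicate arrays, which may be technical. In the fit of all 16 arrays that spread was pooled over the 8 groups. The infected cells were selected with a drug, and no label says whether a line was 1 clone.

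HOX genes encode homeodomain transcription factors that give cells their position along the body axis, and they sit in clusters HOXA to HOXD whose gene order follows where along the axis each gene is used. In cells that do not use them they are classic PRC2 targets: EZH2, the catalytic subunit, methylates lysine 27 of histone H3 across silent HOX clusters, and EED binds that mark and is needed for the enzyme's activity. Adult breast epithelium and breast cancers keep a part of this code in use. The group nearest one end of each cluster (HOXB1, HOXD1) patterns the hindbrain and neck, and the group nearest the other end (HOXC13, HOXD13) patterns the hindmost trunk, limb ends, hair and genital structures.

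RefSeq (GRCh38.p14) promoter sequences were matched for 11 of the 27 genes. The sequences below are the 250 bases before the gene start of HOXB1 and of the 3 HOXD genes that reached log2 6 in HCC70. HOXB1 was called higher in HCC70 with scrambled set a than in MDA-MB-468 with scrambled shRNA, and was not called with set b. Capitals mark CG dinucleotides, the bases of the CpG islands that PRC2 is known to occupy. HOXB1 lies at chr17:48531012-48531261 on the minus strand, and on the plus strand lie HOXD1 at chr2:176188418-176188667, HOXD4 at chr2:176151300-176151549 and HOXD13 at chr2:176092471-176092720.
HOXB1: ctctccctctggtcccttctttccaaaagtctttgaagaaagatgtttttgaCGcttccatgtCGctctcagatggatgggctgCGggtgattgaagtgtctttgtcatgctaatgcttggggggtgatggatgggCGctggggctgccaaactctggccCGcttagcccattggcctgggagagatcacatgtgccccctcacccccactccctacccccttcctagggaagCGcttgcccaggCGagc
HOXD1: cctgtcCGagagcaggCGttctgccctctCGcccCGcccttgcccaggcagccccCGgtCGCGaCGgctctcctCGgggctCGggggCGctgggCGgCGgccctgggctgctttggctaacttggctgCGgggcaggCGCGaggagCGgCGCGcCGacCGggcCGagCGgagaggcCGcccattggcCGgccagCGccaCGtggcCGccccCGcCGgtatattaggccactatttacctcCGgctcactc
HOXD4: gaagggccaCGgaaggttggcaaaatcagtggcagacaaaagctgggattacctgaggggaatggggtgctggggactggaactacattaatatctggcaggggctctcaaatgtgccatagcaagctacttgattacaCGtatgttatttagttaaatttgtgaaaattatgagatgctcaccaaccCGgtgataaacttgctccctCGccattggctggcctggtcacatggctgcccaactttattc
HOXD13: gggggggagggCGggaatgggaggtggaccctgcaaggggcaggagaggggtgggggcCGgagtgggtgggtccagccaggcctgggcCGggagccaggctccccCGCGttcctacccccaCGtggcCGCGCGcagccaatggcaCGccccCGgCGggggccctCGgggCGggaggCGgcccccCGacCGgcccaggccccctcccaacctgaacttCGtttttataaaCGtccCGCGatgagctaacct
HOXD1 held 31 CG in this window, HOXD13 held 21, HOXB1 held 7 and HOXD4 held 4. Of 35114 RefSeq promoters, 90.5% had no more CG than HOXD1 and 34.3% no more than HOXD4, so these genes spanned CG-rich and CG-poor starts. The median was 21 CG over the 11 HOX promoters, against 11 over all promoters. These 11 were all of HOXD apart from HOXA2 (8 CG), HOXB1 (7) and HOXC5 (14). No promoter was matched for HOXB2, HOXB6, HOXB7, HOXC10 or HOXC13. The homeodomain core TAATTA, which reads the same on both strands, was found in 2 of the 11 (HOXD3 and HOXD11), or 18.2%, against 4.35% of all promoters; a match is a description and not a site.

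The HOX clusters also hold microRNA genes. The mature strands shown here lie between the HOX genes described below, with the seed (bases 2 to 8) in capitals: miR-196a is encoded both in HOXB, at chr17:48632532-48632553 on the minus strand, and in HOXC, at chr12:53991762-53991783 on the plus strand, and miR-10a lies in HOXB at chr17:48579904-48579926 on the minus strand.
hsa-miR-196a-5p: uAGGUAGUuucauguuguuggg
hsa-miR-10a-5p: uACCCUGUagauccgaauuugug
miR-196a is known to target HOX transcripts, HOXB8 among them. The clusters of their host genes stayed low: MIR196A1 lay between 4.23 and 4.57 on the 12 HCC70 arrays, against 4.20 to 4.41 on the 4 MDA-MB-468 arrays, and MIR10A between 3.07 and 3.31 in HCC70, against 3.06 to 3.28 in MDA-MB-468. This array measures longer transcripts and is not designed for mature microRNAs.

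The knockdowns lowered their targets. EZH2 had log2 signals of 8.50 and 8.58 in HCC70 shEZH2 cells, against a mean of 10.01 with scrambled set a (-1.47, limma adjusted p = 8.45e-07). In MDA-MB-468 it had 8.39 and 8.48 with shEZH2, against 10.07 and 10.14 with scrambled shRNA (-1.67, adjusted p = 6.58e-07, and 0.0908 in a fit of those 4 arrays alone). EED had 7.54 and 7.49 in shEED cells, against 8.35 and 8.31 with set b (-0.82, adjusted p = 0.000768). EZH2 had 10.20 and 10.27 with the EZH2 cDNA, against 9.94 and 9.94 with the empty vector, a difference that did not pass the test (0.29 ± 0.07 SE, adjusted p = 0.18). All 7 epithelial markers reached log2 6, with KRT8 at 11.7 to 12.6 in HCC70 and 12.3 to 12.6 in MDA-MB-468; of 10 markers of leukocytes, endothelium and fibroblasts only CD14 and COL1A1 reached 6, and PTPRC (3.21 to 3.44 in HCC70, 3.27 to 3.33 in MDA-MB-468) and PECAM1 (3.99 to 4.33 in HCC70, 4.08 to 4.27 in MDA-MB-468) were low. CD14 lay at 9.58 to 10.9 in HCC70 and 9.70 to 10.1 in MDA-MB-468, and it and some epithelial markers moved with the knockdowns, as given beside those results. Array medians ran from 5.37 to 5.53, and the correlation of duplicates across all clusters was r = 0.994 to 0.997.

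Most HOX genes had means under log2 6 in both lines, and most of all clusters also lay under it in each line. A mean of log2 6 was reached by 10 of the 27 in HCC70 (37.0%) and by 5 in MDA-MB-468 (18.5%), while 43.6% of all clusters in HCC70 and 43.5% in MDA-MB-468 did so, as did 54.6% and 54.2% of 1-symbol clusters in the same order of lines. By cluster, HCC70 and MDA-MB-468 had 0 and 0 of 1 HOXA gene, 3 and 1 of 10 HOXB genes, 4 and 4 of 7 HOXC genes, and 3 and 0 of 9 HOXD genes at this level. The 5 genes that reached it in both lines were HOXB7, HOXC10, HOXC11, HOXC12 and HOXC13. HCC70 added HOXB2, HOXB3, HOXD1, HOXD4 and HOXD13, and 17 genes reached it in neither line. Signals of different genes come from different probes and were not ranked against each other, and a cluster below log2 6 is not shown to be silent. In RNA from whole cultures, fewer cells with a transcript and less of it per cell cannot be told apart.

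**Figure D1:**
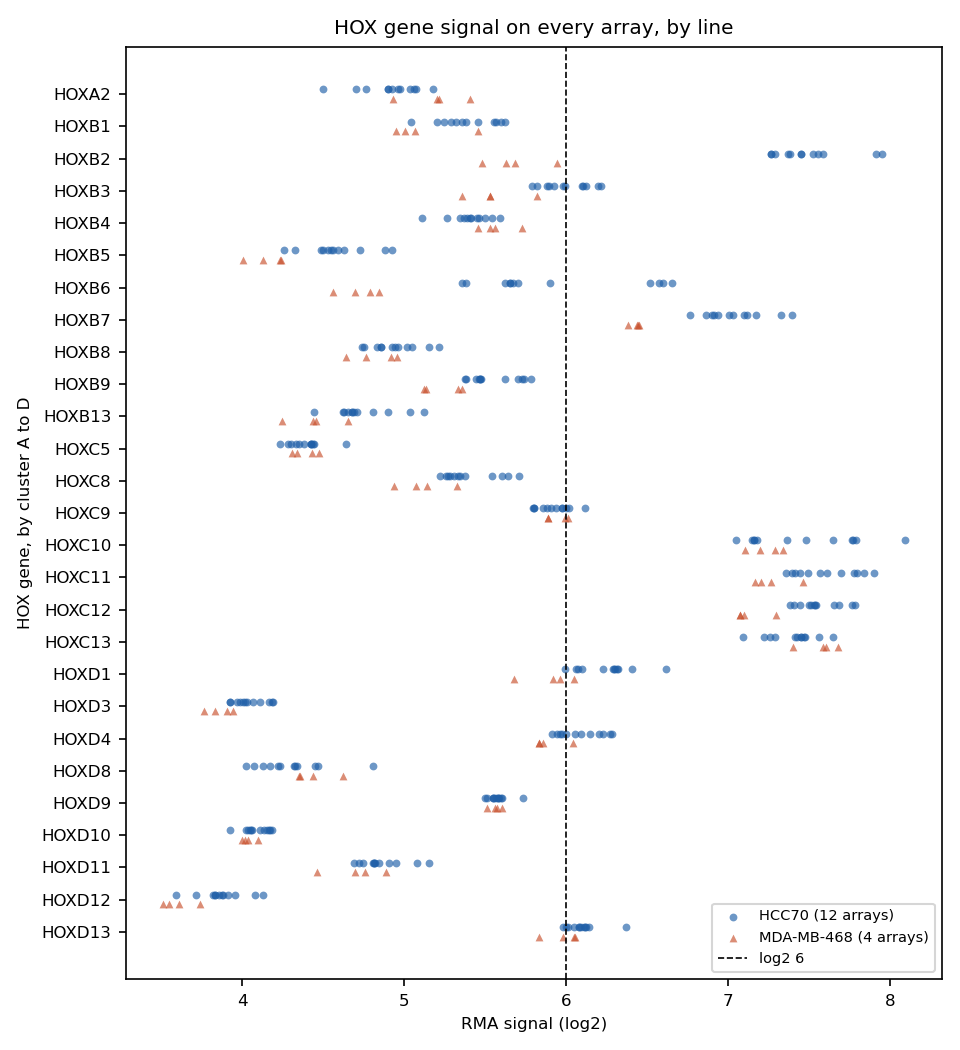
RMA log2 signal (horizontal axis) of the 27 HOX genes (vertical axis) on every array, with HCC70 as blue circles (12 arrays) and MDA-MB-468 as red triangles (4 arrays); the dashed line is log2 6. HOXB2, HOXB6 and HOXB7 show HCC70 arrays wholly to the right of the MDA-MB-468 arrays, while HOXC10 to HOXC13 lie above 6 in both lines.

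Several genes lay close to that level, and their place on either side of it carries little weight. In HCC70 the means just above were 6.00 for HOXB3 (5 of 12 arrays at 6 or more) and 6.09 for HOXD4 (7 of 12) and HOXD13 (10 of 12). The means just below were 5.94 for HOXB6 (4 of 12) and 5.92 for HOXC9 (2 of 12). In MDA-MB-468 HOXB7 was the nearest above at 6.43, with all 4 arrays over 6, and HOXD13 the nearest below at 5.98, with 2 of 4. Counting only genes with every HCC70 array at 6 left 6: HOXB2, HOXB7, HOXC10, HOXC11, HOXC12 and HOXC13.

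Within HOXB, every HCC70 array was above log2 6 for HOXB2, which in embryos patterns the hindbrain, and for HOXB7, a trunk gene much studied in breast cancer cells. HOXB2 ran from 7.26 through a median of 7.45 to 7.95 in HCC70, against 5.48 to 5.94 in MDA-MB-468. HOXB7 ran from 6.76 through 7.02 to 7.39 in HCC70, against 6.38 to 6.45 in MDA-MB-468. HOXB6, their trunk-level neighbour, ran from 5.35 through 5.69 to 6.65 in HCC70, against 4.56 to 4.85 in MDA-MB-468. For these 3 genes no array of one line reached into the other's range, and HOXB6 varied most within HCC70 (SD 0.50 over 12 arrays, against 0.23 for HOXB2 and 0.19 for HOXB7). The other HOXB genes stayed at or under 6.22 on every array: HOXB3 at 5.79 to 6.22 in HCC70 and 5.36 to 5.82 in MDA-MB-468, and HOXB13, the hindmost gene of the cluster and a prostate regulator, at 4.44 to 5.12 in HCC70 and 4.24 to 4.65 in MDA-MB-468. HOXB5 and HOXB9 were also without overlap between lines, by gaps of only 0.015 and 0.020. In all, 6 of the 27 genes had every HCC70 array above every MDA-MB-468 array, the other being HOXC12, and 0 had every array below; over all clusters the shares were 10.9% above and 13.8% below.

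Within HOXC, the 4 genes of the hind end were above log2 6 on every array of both lines. HOXC10, which acts in the hindlimb and lower spinal cord, ran from 7.05 through 7.42 to 8.09 in HCC70, against 7.10 to 7.34 in MDA-MB-468. HOXC11 ran from 7.36 through 7.59 to 7.90 in HCC70, against 7.17 to 7.46 in MDA-MB-468. HOXC12 ran from 7.38 through 7.53 to 7.78 in HCC70, against 7.07 to 7.30 in MDA-MB-468. HOXC13, which drives hair and nail keratin genes, ran from 7.09 through 7.44 to 7.64 in HCC70, against 7.40 to 7.68 in MDA-MB-468. The lines overlapped for HOXC10, HOXC11 and HOXC13, and were apart by 0.085 for HOXC12. The genes of the trunk and neck had means under 6 in both lines, with HOXC8 at 5.22 to 5.71 in HCC70 and 4.94 to 5.33 in MDA-MB-468, HOXC9 at 5.79 to 6.12 and 5.88 to 6.01, and HOXC5 at 4.23 to 4.64 and 4.31 to 4.47, in the same order of lines.

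Within HOXD, 6 of the 9 genes had no array at 6. HOXD1, at the end of the cluster used nearest the head, ran from 5.99 through 6.29 to 6.62 in HCC70, against 5.67 to 6.05 in MDA-MB-468. HOXD4 ran from 5.91 to 6.28 in HCC70, against 5.83 to 6.04 in MDA-MB-468. HOXD13, the digit gene at the other end, had a mean of 6.09 ± 0.10 in HCC70 (SD, n = 12), against 5.98 ± 0.10 in MDA-MB-468 (n = 4). HOXD10, often discussed as a Polycomb-silenced gene in breast cancer, stayed at 3.93 to 4.18 in HCC70 and at or under 4.10 in MDA-MB-468. HOXD9 was the steadiest gene of the 27, with an SD of 0.05 over 16 arrays. HOXA2, which patterns the second pharyngeal arch, averaged 4.91 ± 0.19 in HCC70 (SD, n = 12), against 5.19 ± 0.19 in MDA-MB-468 (n = 4).

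The lines were compared in cells with scrambled shRNA, HCC70 set a minus MDA-MB-468, by limma over all clusters. Of the 27 HOX genes, 12 were higher in HCC70 and 1 was lower at an adjusted p under 0.05, beside 40.8% of all clusters called in either direction (20.4% higher and 20.4% lower). The median difference over the HOX genes was 0.30 log2, against 0.05 over all clusters, and 21 of 27 lay above 0, against 56.3% of all clusters. The higher genes were 7 of 10 in HOXB, 3 of 7 in HOXC and 2 of 9 in HOXD.

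**Figure D2:**
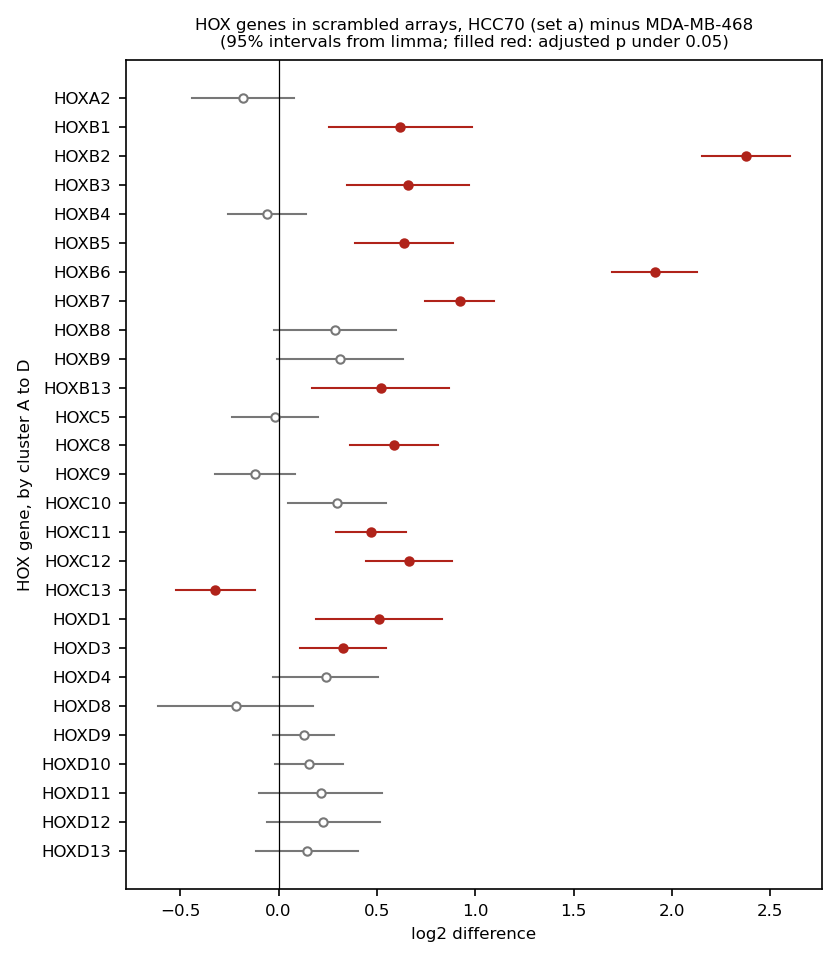
Log2 difference in HCC70 with scrambled shRNA set a minus MDA-MB-468 with scrambled shRNA (horizontal axis, 2 arrays each) for 27 HOX genes (vertical axis), with 95% confidence intervals from limma; filled red points passed an adjusted p under 0.05. HOXB2 at 2.38 and HOXB6 at 1.91 stand apart from the other genes, and HOXC13 at -0.32 is the only called gene below 0.

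HOXB2 had 7.92 and 7.95 in HCC70 set a, against 5.63 and 5.48 in MDA-MB-468, a difference of 2.38 ± 0.10 (SE) or 5.19-fold (adjusted p = 6.13e-09). HOXB6 had 6.60 and 6.57 in HCC70, against 4.79 and 4.56 in MDA-MB-468, or 3.76-fold (adjusted p = 2.7e-08). HOXB7 had 7.32 and 7.39 in HCC70, against 6.44 and 6.44 in MDA-MB-468, or 1.89-fold (adjusted p = 2.46e-06). These are the 3 largest HOX differences between the lines, each with both HCC70 arrays above both MDA-MB-468 arrays. With set b as the HCC70 side they were 1.94 for HOXB2, 1.13 for HOXB6 and 0.49 for HOXB7, all called. Called with either set were HOXB3 (0.66 with set a and 0.52 with set b), HOXB5 (0.64 and 0.41), HOXC8 (0.58 and 0.30), HOXC11 (0.47 and 0.62) and HOXC12 (0.66 and 0.42). With all 12 HCC70 arrays against all 4 of MDA-MB-468, treated cells included, an alternative chosen after seeing the data, 16 HOX genes were higher and 3 lower, beside 49.8% of all clusters called, and HOXB2 differed by 1.82, HOXB6 by 1.22 and HOXB7 by 0.62.

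The remaining called differences were lost on leaving out single arrays or with the other set. HOXB1 (0.62, adjusted p = 0.0105), HOXB13 (0.52, adjusted p = 0.0207), HOXD1 (0.51, adjusted p = 0.0153) and HOXD3 (0.33, adjusted p = 0.0213) were higher in HCC70 set a, and each call was lost with set b, at adjusted p = 0.235, 0.694, 0.0623 and 0.0506 in that order of genes. HOXC13 was lower, at 7.29 and 7.25 in HCC70 set a, against 7.58 and 7.60 in MDA-MB-468 (-0.32, adjusted p = 0.0142). With set b its difference was 0.01 (adjusted p = 0.962). HOXB1 also lost its call without set a replicate 1 (adjusted p = 0.0545). HOXB13, whose difference fell to 0.32 without scrambled MDA-MB-468 replicate 2 (adjusted p = 0.208), lost it too without set a replicate 2 (adjusted p = 0.115). HOXD1 lost its call without either set a array or without scrambled MDA-MB-468 replicate 2, where the adjusted p ran from 0.0557 to 0.132. HOXD3 lost its call without set a replicate 1 or either scrambled MDA-MB-468 array, where the adjusted p ran from 0.054 to 0.131. HOXC13 lost its call without set a replicate 2 (adjusted p = 0.0722) or scrambled MDA-MB-468 replicate 2 (adjusted p = 0.0699). Other settings that ended a call were the fit of the arrays compared only for HOXB13 (adjusted p = 0.0505), centring for HOXD3 (adjusted p = 0.0644) and quantile normalization for HOXC13 (adjusted p = 0.0575). With all arrays of each line, treated cells included, each of these genes was called in the same direction. There HOXB1 differed by 0.27 (adjusted p = 0.0355), HOXB13 by 0.30 (adjusted p = 0.0165) and HOXD1 by 0.35 (adjusted p = 0.00425). HOXD3 differed by 0.18 (adjusted p = 0.0188) and HOXC13 by -0.17 (adjusted p = 0.0171).

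Knockdown of EZH2 in HCC70 left 26 of the 27 HOX genes uncalled. By limma, 0 rose and 1, HOXB2, fell, beside 4.2% of all clusters called (2.8% higher and 1.4% lower). The median difference over the HOX genes was -0.05, against -0.007 over all clusters, with 12 genes above 0 and 15 below. HOXB2 had 7.52 and 7.37 with shEZH2, against 7.92 and 7.95 with scrambled set a, so both shEZH2 arrays were under both controls. It fell by 0.49 ± 0.10 on the log2 scale (95% interval -0.71 to -0.26, 1.40-fold, adjusted p = 0.0214). In the same comparison CD14 had 10.01 and 9.80 in shEZH2 cells, against 10.52 and 10.44 with set a (adjusted p = 0.00431), and the epithelial markers KRT14 (-0.82, adjusted p = 0.000264) and EPCAM (-0.51, adjusted p = 0.0483) were lower; their part in the HOX difference was not tested. Against scrambled set b, with 7.45 and 7.55, the difference was -0.05 (adjusted p = 0.803), and against both sets -0.27 (adjusted p = 0.0977). The call was also lost without set a replicate 1 (adjusted p = 0.107), set a replicate 2 (adjusted p = 0.136) or shEZH2 replicate 2 (adjusted p = 0.102), and in a fit of these 4 arrays alone (adjusted p = 0.178).

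The 26 uncalled genes had 95% intervals between -0.64 (HOXB1) and 0.78 (HOXD8), all within 1 log2 unit of 0. HOXC10 had 8.09 and 7.79 with shEZH2, against 7.48 and 7.65 with set a, a difference of 0.38 (adjusted p = 0.1). Without shEZH2 replicate 2 it was 0.53 (adjusted p = 0.0365), against set b it was 0.84 (adjusted p = 0.000659) and against both sets 0.61 (adjusted p = 0.00284); testing only clusters that reached log2 7 on 2 arrays also gave a call (adjusted p = 0.0438). Both shEZH2 arrays of HOXC10 were thus above all 4 scrambled arrays. HOXB7 had 7.12 and 7.03, against 7.32 and 7.39 (-0.28, adjusted p = 0.079), and passed when only clusters reaching log2 6 on 2 arrays were tested (adjusted p = 0.0429) or after quantile normalization (adjusted p = 0.0396). HOXB6 had 6.65 and 6.52 with shEZH2, against 6.60 and 6.57 with set a, a difference of -0.0014 (adjusted p = 0.997) that became 0.78 against set b (adjusted p = 0.000331).

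**Figure D3:**
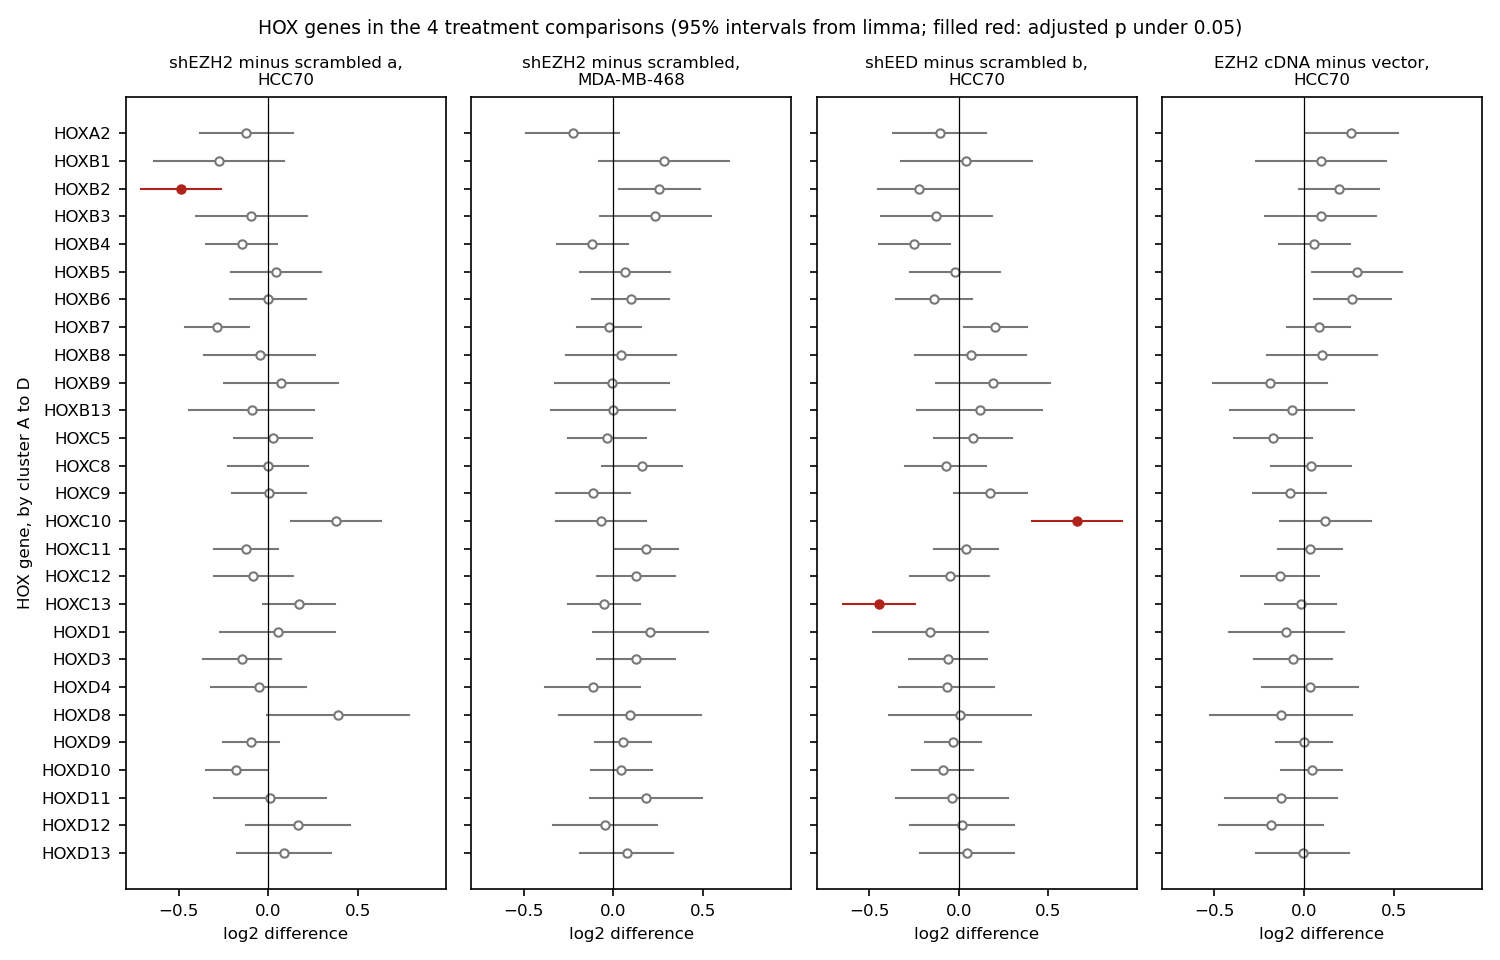
Log2 difference, treated minus control (horizontal axis, 2 arrays each), for 27 HOX genes (vertical axis) in 4 panels, 1 for each treatment, with 95% confidence intervals from limma; filled red points passed an adjusted p under 0.05. The called points are HOXB2 with shEZH2 in HCC70 and HOXC10 and HOXC13 with shEED, and the shEZH2 panel of MDA-MB-468 and the EZH2 cDNA panel have none.

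Knockdown of EZH2 in MDA-MB-468 called 0 of 27 HOX genes, beside 2.55% of all clusters (0.862% higher and 1.68% lower). The median difference was 0.05, against 0.007 over all clusters, with 16 genes above 0 and 11 below. The 95% intervals lay between -0.49 (HOXA2) and 0.65 (HOXB1). The smallest adjusted p was that of HOXB2, with 5.68 and 5.94 in shEZH2 cells, against 5.63 and 5.48 with scrambled shRNA (0.26, adjusted p = 0.231). HOXC10, with 7.29 and 7.10 in shEZH2 cells, against 7.20 and 7.34 with scrambled shRNA, had overlapping groups. CD14 averaged 9.70 in shEZH2 cells, against 10.11 with scrambled shRNA (-0.41, adjusted p = 0.0445), and 0 of 7 epithelial markers were called.

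The effects of shEZH2 in the lines were compared directly, as the HCC70 effect minus the MDA-MB-468 effect. Of the 27 HOX genes, 1 was called, beside 4.68% of all clusters (3.2% higher and 1.48% lower). HOXB2 had an effect of -0.49 in HCC70 and of 0.26 in MDA-MB-468, a difference of -0.74 ± 0.15 (adjusted p = 0.0162). The call was lost with set b as the HCC70 control (-0.31, adjusted p = 0.28) and with both sets (-0.53, adjusted p = 0.0503). It was also lost without set a replicate 1 (adjusted p = 0.0515), set a replicate 2 (adjusted p = 0.0664) or scrambled MDA-MB-468 replicate 2 (adjusted p = 0.0736), and in a fit of the 8 arrays involved (adjusted p = 0.111).

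Knockdown of EED in HCC70 called 2 HOX genes, 1 in each direction, beside 5.51% of all clusters (2.43% higher and 3.08% lower). The median difference was -0.03, against 0.005 over all clusters. HOXC10 had 7.77 and 7.76 in shEED cells, against 7.16 and 7.05 with scrambled set b, and rose by 0.66 ± 0.11 on the log2 scale (95% interval 0.41 to 0.91, 1.58-fold, adjusted p = 0.00543). HOXC13 had 7.22 and 7.09 in shEED cells, against 7.64 and 7.56 with set b, and fell by 0.45 ± 0.09 (1.36-fold, adjusted p = 0.0136). The groups did not overlap for either gene. HOXC11 (0.04) and HOXC12 (-0.05), which lie between them in the cluster, were not called. In the same comparison CD14 had 9.59 and 9.58 in shEED cells, against 10.80 and 10.73 with set b (adjusted p = 1.89e-05), and the epithelial markers KRT8 (-0.53, adjusted p = 0.00574) and KRT14 (-0.56, adjusted p = 0.00266) were lower; their part in the HOX differences was not tested.

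The 2 calls were lost against set a alone and kept against both sets together. Against both sets HOXB6 (-0.53, adjusted p = 0.00169), HOXB2 (-0.44, adjusted p = 0.00731) and HOXB4 (-0.32, adjusted p = 0.0212) were also called, all lower in shEED cells. For HOXC10 both shEED arrays lay above all 4 scrambled HCC70 arrays, and for HOXC13 both lay below all 4. Against set a, with 7.48 and 7.65, the HOXC10 difference was 0.20 (adjusted p = 0.271), and against both sets it was 0.43 (adjusted p = 0.0145). HOXC13 differed from set a, with 7.29 and 7.25, by -0.12 (adjusted p = 0.443), and from both sets by -0.28 (adjusted p = 0.0387). Without set b replicate 2 the HOXC10 difference was 0.61 (adjusted p = 0.0654). HOXC13 lost its call without set b replicate 1 (-0.40, adjusted p = 0.138), set b replicate 2 (-0.49, adjusted p = 0.0634) or shEED replicate 2 (-0.38, adjusted p = 0.151). Set a instead of set b gave 4 calls beside 16.9% of all clusters, all lower in shEED cells: HOXB6 (-0.92, adjusted p = 7.76e-05), HOXB2 (-0.65, adjusted p = 0.00109), HOXB4 (-0.38, adjusted p = 0.0127) and HOXC8 (-0.36, adjusted p = 0.0314). The 25 genes not called against set b had 95% intervals between -0.48 (HOXD1) and 0.51 (HOXB9). HOXB2 was among them, with 7.29 and 7.26 in shEED cells, against 7.45 and 7.55 with set b (-0.22, adjusted p = 0.321).

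The EZH2 cDNA called 0 of 27 HOX genes in HCC70, beside 0.264% of all clusters (0.252% higher and 0.012% lower). The median difference was 0.03, against 0.004 over all clusters, and the 95% intervals lay between -0.53 (HOXD8) and 0.55 (HOXB5). The smallest adjusted p was that of HOXB6, with 5.65 and 5.62 in EZH2 cDNA cells, against 5.35 and 5.38 with the empty vector (0.27, adjusted p = 0.491). HOXB5 had 4.55 and 4.63 with the cDNA, against 4.26 and 4.33 with the vector (0.30, adjusted p = 0.556), and HOXB2 had 7.59 and 7.45, against 7.38 and 7.27 (0.20, adjusted p = 0.747). Some HOX genes had both cDNA arrays above both vector arrays and others had both below, and none of them passed the test. The share of all clusters separated this way was not counted, so these separations are not read as a result. The epithelial marker KRT14 was higher with the cDNA (0.50, adjusted p = 0.0438), and 0 of 10 leukocyte, endothelial and fibroblast markers passed.

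The scrambled HCC70 sets differed from each other in 5 HOX genes, more than any treatment called against the control assigned to it, beside 8.95% of all clusters (2.78% higher and 6.17% lower). HOXB6 had 6.60 and 6.57 in set a, against 5.70 and 5.90 in set b, a difference of 0.78 ± 0.10 (1.72-fold, adjusted p = 0.000476) that was called whichever array was left out. HOXB7 (0.43, adjusted p = 0.00694), HOXC10 (0.46, adjusted p = 0.0291) and HOXB2 (0.43, adjusted p = 0.0227) were also higher in set a, and HOXC13 was lower (-0.33, adjusted p = 0.0448). HOXB7 lost its call without replicate 2 of either set, and HOXB2, HOXC10 and HOXC13 each lost theirs when any 1 of the 4 arrays was left out. Centring ended the calls of HOXB2 (adjusted p = 0.0683) and HOXC10 (adjusted p = 0.0993), and quantile normalization that of HOXC13 (adjusted p = 0.0654). All 10 HOXB genes were above 0 in this comparison, with a median of 0.28, against 56.7% of all clusters above 0 and a median of 0.03. The genes that treatments called (HOXB2, HOXC10, HOXC13) were among the 5 that differed between controls with the same label. The treatment comparisons and this one share control arrays, so these calls are not independent of each other.

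**Figure D4:**
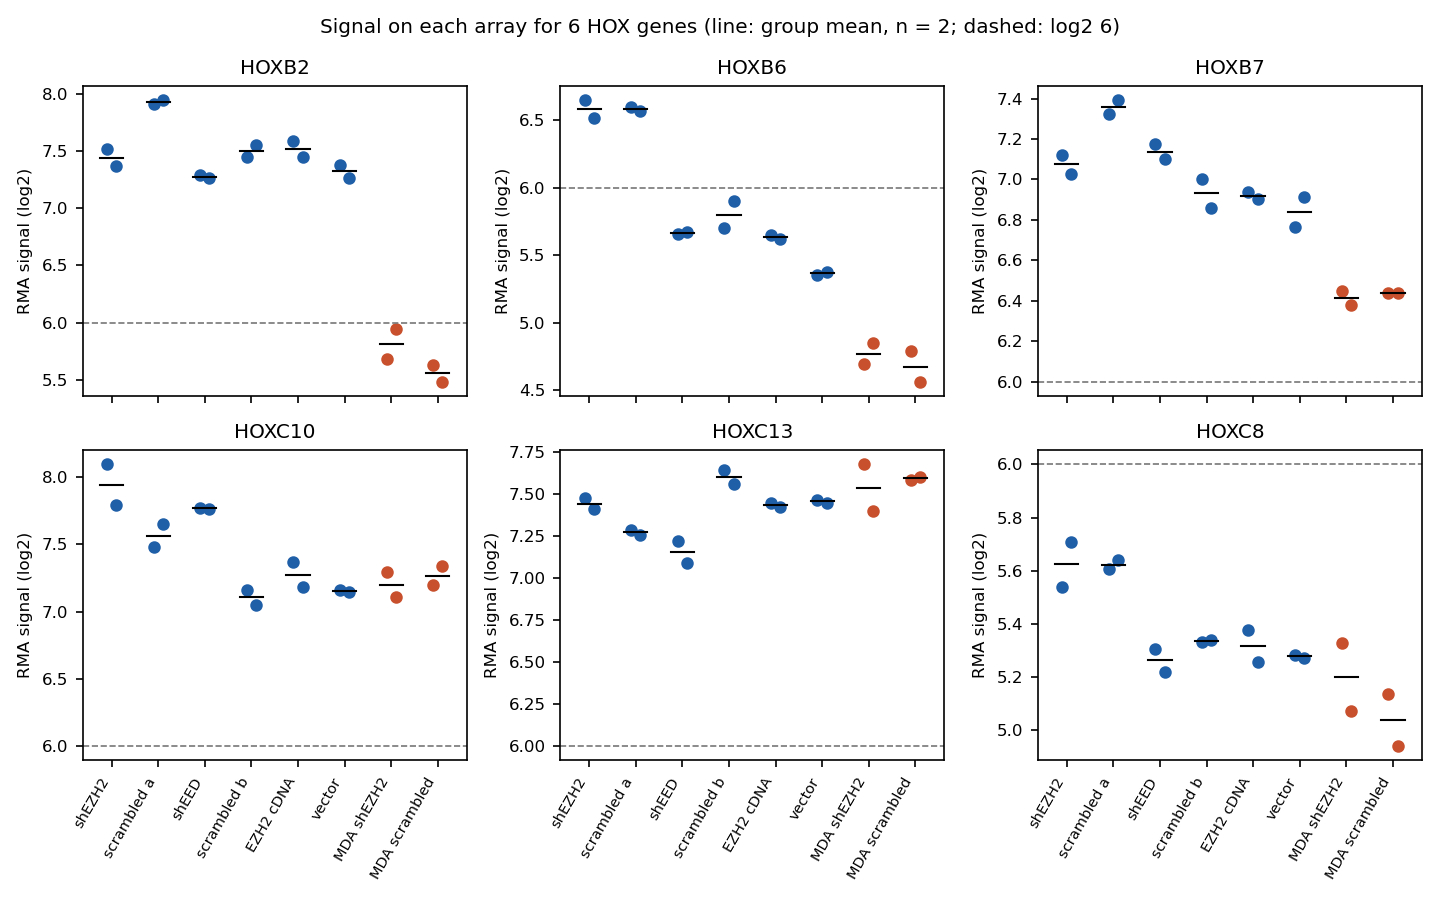
RMA log2 signal (vertical axis) of HOXB2, HOXB6, HOXB7, HOXC10, HOXC13 and HOXC8 on each array in the 8 groups (horizontal axis, each treated group left of its control); points are arrays and bars the mean of 2. HOXB6 is at 6.52 to 6.65 in HCC70 shEZH2 and its scrambled set a, and at 5.35 to 5.90 in the other HCC70 groups.

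The sample codes place set a and shEZH2 in 1 block of HCC70 arrays. HOXB6 lay at 6.52 to 6.65 on the 4 arrays of that block, against 5.35 to 5.90 on the other 8 HCC70 arrays. HOXC8, a trunk gene, lay at 5.54 to 5.71 on the 4 arrays, against 5.22 to 5.38 on the other 8. These 2 of 27 HOX genes were wholly above and 0 wholly below, beside 4.23% of all clusters above and 5.35% below. The 4 arrays with HOXB6 at 6 or more were those of this block and included both controls and knockdown cells. Among 4 PRC2 core genes, EED was higher in scrambled set a (8.72, against 8.33 in set b, 0.38, adjusted p = 0.0431). EZH1 was lower in set a (5.68, against 6.20 in set b, -0.52, adjusted p = 0.00209), and EZH2 and SUZ12 were not called. Over all clusters 2.78% were higher and 6.17% lower. No label says what the block stands for, and its part in the HOX differences was not tested.

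Proteins that work with or on HOX genes were counted in the same fit, from lists chosen with earlier results of these data known. Of 7 measured TALE homeodomain cofactors (PBX, MEIS and PKNOX proteins, which bind DNA together with HOX proteins), 3 rose with shEZH2 in HCC70 and 0 fell, beside 2.8% of all clusters higher and 1.4% lower. PBX3 had 6.80 and 6.62 in shEZH2 cells, against 6.10 and 5.88 with set a (0.72, adjusted p = 0.0317). PKNOX2 had 5.74 and 5.55, against 5.24 and 5.22 (0.42, adjusted p = 0.0199), and MEIS2 had 7.46 and 7.42, against 7.14 and 7.02 (0.36, adjusted p = 0.0441). The PBX3 and MEIS2 calls were lost when any 1 of the 4 arrays was left out and with arrays centred on their medians. The PKNOX2 call was lost without either set a array or shEZH2 replicate 1 and with centred arrays (adjusted p = 0.063). Against set b PBX3 differed by 0.19 (adjusted p = 0.551) and PKNOX2 by 0.20 (adjusted p = 0.183), while MEIS2 differed by 0.65 (adjusted p = 0.000637).

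In the other 3 treatments 0 of the 7 cofactors were called, with smallest adjusted p = 0.131 for shEZH2 in MDA-MB-468, 0.279 for shEED and 0.764 for the EZH2 cDNA. Over all clusters 2.55%, 5.51% and 0.264% were called in that order of treatments, so 0 of 7 is near those shares. The effect of shEZH2 on PBX3 differed between the lines by 1.24 (adjusted p = 0.0137), and on PKNOX2 by 0.52 (adjusted p = 0.0369). The PBX3 call was lost without set a replicate 2 (adjusted p = 0.0649) or scrambled MDA-MB-468 replicate 2 (adjusted p = 0.0591) and with set b (adjusted p = 0.111), and the PKNOX2 call with set b (adjusted p = 0.2) and on leaving out any array but shEZH2 replicate 2 of HCC70. Between the lines 2 of the 7 cofactors were higher in HCC70 set a and 2 were lower. Over all clusters 20.4% were higher and 20.4% lower. PBX3, among the lower ones, had 6.10 and 5.88 in HCC70 set a, against 7.16 and 7.54 in MDA-MB-468 (-1.36, adjusted p = 3.84e-05). With set b the difference was -0.82 (adjusted p = 0.00188).

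Of 8 genes for trithorax-type HOX activators and H3K27 demethylases, 0 were called in the HCC70 treatments. Over all clusters 4.2% were called there with shEZH2, 5.51% with shEED and 0.264% with the EZH2 cDNA. In MDA-MB-468, KDM6A, an H3K27 demethylase, had 6.41 and 6.58 with shEZH2, against 6.83 and 7.07 with scrambled shRNA (-0.45, adjusted p = 0.0469), beside 1.68% of all clusters lower; the call was lost without scrambled replicate 2 (adjusted p = 0.355) or either shEZH2 array (adjusted p = 0.204 and 0.0602), and after centring (adjusted p = 0.0534) or quantile normalization (adjusted p = 0.0563). Between the lines 5 of the 8 were lower in HCC70, among them ASH2L (-1.20) and KMT2A (-1.05), and 1 was higher, WDR5 (0.38), beside 20.4% of all clusters lower and 20.4% higher. Of the 12 genes flanking the HOX clusters, 0 were called in any of the 4 treatments, beside 0.264% to 5.51% of all clusters. Between the lines 4 of the 12 were higher and 2 lower in HCC70 than in MDA-MB-468, beside 20.4% of all clusters higher and 20.4% lower. Of the 6 ParaHox and CDX genes, relatives of HOX genes outside the clusters, 0 were called in the 4 treatments, beside 0.264% to 5.51% of all clusters. Of the same 6, GSX1 (0.48) and CDX1 (0.53) were higher in HCC70 set a than in MDA-MB-468, beside 20.4% of all clusters. With set b both calls were lost, at 0.29 for GSX1 (adjusted p = 0.127) and 0.27 for CDX1 (adjusted p = 0.191). Without set a replicate 1 or scrambled MDA-MB-468 replicate 1 the GSX1 call was lost (adjusted p = 0.097 and 0.0903), and without replicate 2 of either group that of CDX1 (adjusted p = 0.0751 and 0.0844).

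Retinoic acid is a classic inducer of HOX genes, and genes of its metabolism were counted too. ALDH1A1, an enzyme that makes retinoic acid, had 7.11 and 7.15 in shEED cells, against 10.02 and 10.01 with set b (-2.89, 7.40-fold, adjusted p = 1.11e-08). It had 8.93 and 8.77 with shEZH2 in HCC70, against 10.12 and 10.08 with set a (-1.25, adjusted p = 6.46e-06), and 10.65 and 10.55 with shEZH2 in MDA-MB-468, against 10.01 and 10.07 with scrambled shRNA (0.56, adjusted p = 0.00542, and 0.241 in a fit of those 4 arrays alone). The other gene called in a treatment was ALDH1A3, of the same enzyme family, at 10.71 and 10.72 with shEED, against 11.08 and 11.14 with set b (-0.40, adjusted p = 0.0062). Against set a its difference turned to 0.56 (adjusted p = 0.000271), and its call was lost without set b replicate 2 (adjusted p = 0.0759) or either shEED array (adjusted p = 0.0611 and 0.051). Of the 10 measured genes of this list, the other 8, among them the retinoic acid receptors, were not called in any of the 4 treatments. Over all clusters 4.2% were called with shEZH2 in HCC70, 2.55% with shEZH2 in MDA-MB-468, 5.51% with shEED and 0.264% with the EZH2 cDNA.

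Of 14 non-coding RNAs of the HOX clusters, 5 had a cluster of their own and 0 were called in any of the 7 comparisons. Over all clusters the shares called ran from 0.264% with the EZH2 cDNA to 40.8% between the lines. HOXA-AS2, an antisense transcript of the HOXA cluster, lay at 5.64 to 6.38 on the HCC70 arrays, against 5.32 to 5.41 on the MDA-MB-468 arrays. Every HCC70 array was thus above every MDA-MB-468 array, as in 10.9% of all clusters. In scrambled cells the HOXA-AS2 difference, HCC70 set a minus MDA-MB-468, was 0.29 (adjusted p = 0.172).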

How the data were processed

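Total RNA of 16 samples was hybridised to Affymetrix Human Gene 1.0 ST arrays. The deposited values are log2 signals made with RMA in Affymetrix Expression Console, per the submitters' processing notes, which give no version and no genome build for the clusters. RMA normalizes between arrays and tends to understate changes of dim clusters. An array has no read depth, so precision is set by how many arrays there are.

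Sample titles and descriptions gave the groups. With limma 3.58.1 in R 4.3.3, lmFit and eBayes fitted 8 group means over 33297 clusters with no floor (8 residual degrees of freedom, 3.54 prior). The fit was tested on simulated data. Contrasts were two-sided, with Benjamini-Hochberg adjustment over all clusters within each of 7 comparisons; called means an adjusted p under 0.05. Errors are standard errors unless called SD, and intervals are 95% intervals of the fit. Symbols came from the platform annotation supplied, where 1754 clusters had several and 12083 none. Of several 1-symbol clusters of a gene, that with the highest mean signal over 16 arrays was taken. The members and lists were chosen with earlier results of these data known. Every HOX gene, EZH2, EED and, of each list and comparison, at most 3 called genes with the smallest adjusted p were eligible to be named; HOXA-AS2, MIR196A1, MIR10A, WDR5 and the markers were added after their values were seen.

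Replicate numbers were not shown to pair samples. Alternatives were floors of log2 6 and 7, 1-symbol clusters only, median centring, quantile normalization, an intensity trend in the variance prior, only the arrays compared, the other or both scrambled sets, a replicate block and leaving out each array. No scan dates were used, so batches were not tested.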

Additional observations from a re-analysis of the deposited data

Results flagged for a closer look

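For HOXB2 the effect of shEZH2 in HCC70 and that in MDA-MB-468 differed when the difference itself was tested, by -0.74 log2 (limma adjusted p = 0.0162): both HCC70 shEZH2 arrays lay below their set a controls, and both MDA-MB-468 shEZH2 arrays above theirs. The call rested on scrambled set a and was lost with set b (-0.31, adjusted p = 0.28).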

How the results depend on the processing

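HOX genes called. With shEZH2 in HCC70 the count was 1, and it was 2 with both scrambled sets or with set b (HOXB6 and HOXC10 each time), 2 with a floor of 6 or after quantile normalization (HOXB2 and HOXB7 each time), 3 with a floor of 7 and 0 in a fit of the arrays compared only; leaving out an array gave 0 to 1. With shEED it was 2, against 5 with both sets and 4 with set a, and 0 to 2 on leaving out an array. Between the lines it was 13, against 6 with a floor of 7 (where most HOX genes are not tested) and 8 with set b, and 9 to 12 on leaving out an array. The difference of shEZH2 effects gave 1, against 3 with set b, 0 from the arrays compared only and 0 to 2 on leaving out an array, and sets a and b differed in 5, against 3 with centred arrays and 1 to 2 on leaving out an array. Reaching log2 6 on every HCC70 array left 6 genes; a level of 5 gave 17 in each line and a level of 7 gave 6 in HCC70.

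Over all clusters, shEZH2 in HCC70 called 1399, against 2585 with both sets, 3829 with set b, 148 from its own arrays only and 543 to 1428 on leaving out an array. In MDA-MB-468 it called 848, against 1343 and 1440 with floors of 6 and 7, 1 from its own arrays only and 137 to 1192. shEED called 1835, against 3967 with both sets, 5616 with set a and 710 to 782. The EZH2 cDNA called 88, against 162 with 1-symbol clusters, 158 and 167 with floors of 6 and 7, 0 from its own arrays only and 5 to 54. The lines differed in 13597, against 8930 with a floor of 7 and 9839 to 12527; the difference of shEZH2 effects gave 1558, against 236 from its own arrays and 582 to 1779; sets a and b gave 2981, against 1109 to 1474. Centring split the MDA-MB-468 calls into 160 higher and 636 lower (287 and 561 uncentred), and those between sets a and b into 554 and 2281 (925 and 2056 uncentred).

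Signs turned for HOXB6 with shEZH2 in HCC70 (0.39 with both sets, 0.78 with set b) and in the difference of shEZH2 effects (0.69 with set b), for HOXC13 in HCC70 minus MDA-MB-468 (0.0081 with set b), and for ALDH1A3 with shEED (0.079 with both sets, 0.56 with set a). Same-numbered replicates did not deviate together (r from -0.05 to 0.04), and a replicate block changed no count of HOX calls (HOXB2 with shEZH2 in HCC70, adjusted p = 0.0297; HOXC10 with shEED, adjusted p = 0.00692); MEIS2 lost its call (adjusted p = 0.0576). The next cluster of a gene was not run, since no HOX gene has one. The cause of these changes was not tested. With 2 arrays a group, small differences are near the limit of detection, and 15 HOX genes had no array at log2 6, where RMA tends to understate change.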
